A study of Homo sapiens with 21 samples.

Results

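HEY cells, a human ovarian carcinoma line with mesenchymal traits, were compared 144 h after transfection with mir-429 or with a control miRNA. The 6 arrays were chosen by the time point and transfection in their titles, 3 for each arm, out of 21 arrays in the series. The other arrays held both arms at 24 and 48 h and untransfected cells at 0 h, with 3 arrays in each of the 7 groups. The mir-429 cells received mir-429 and the control cells received a negative control microRNA, which the titles call a synthetic miRNA, in both cases with Lipofectamine 2000. The untransfected cells received neither. All groups were grown in RPMI-1640 medium with fetal bovine serum. HEY is 1 established line, so no difference between lines was measured. The titles of both arms carry the same prefix "nc", and the arms were told apart by the transfection label. The labels call the replicates biological without saying whether they came from separate cultures. The p-values therefore measure the spread among the arrays at hand, which may be technical.

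MicroRNAs are short RNAs that lower the stability and translation of mRNAs with matching sites, most often in the 3' untranslated region. mir-429 belongs to the miR-200 family, which is known for keeping epithelial cells epithelial, mainly by silencing ZEB1 and ZEB2, the repressors of E-cadherin and other junction genes. In several carcinoma lines, family members given by transfection are known to shift mesenchymal cells towards an epithelial state. The level of the microRNA itself at 144 h was not analysed here.

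The mature sequences are shown because the seed, bases 2 to 8 in capitals, divides the family into a pair of groups that read different sites. They are from RefSeq (GRCh38.p14), and all lie on the plus strand. The first group, with the seed AAUACUG, holds mir-429 itself (chr1:1169055-1169076), miR-200b-3p (chr1:1167160-1167181) and miR-200c-3p (chr12:6963742-6963764). The other group, with the seed AACACUG, holds miR-200a-3p (chr1:1167916-1167937) and miR-141-3p (chr12:6964155-6964176).
hsa-miR-429: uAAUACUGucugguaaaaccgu
hsa-miR-200b-3p: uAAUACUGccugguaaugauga
hsa-miR-200c-3p: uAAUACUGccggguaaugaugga
hsa-miR-200a-3p: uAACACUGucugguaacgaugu
hsa-miR-141-3p: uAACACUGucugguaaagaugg

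Values are log2 RMA levels, a change is mir-429 minus control miRNA on that scale with its standard error (SE) from the fit, and 1 unit is a 2-fold difference. A gene was called where limma's Benjamini-Hochberg adjusted p was under 0.05. Where a change is given only as a bound, the adjusted p belongs to the fitted change, and the bound was not tested. Of 12 markers of the HEY line, 8 lay above the array medians in each arm. They include VIM, CDH2 and the ovarian factor PAX8, while CDH1, EPCAM, KRT19 and MUC16 lay below. Of 17 leukocyte markers on the arrays, 1 exceeded the median level in mir-429 cells and 0 in control cells, and their mean was 2.87 to 3.01 in mir-429 arrays and 2.91 to 3.06 in control arrays. Of 18 endothelial markers 11 did so in each arm, with array means of 5.32 to 5.71 in mir-429 arrays and 5.6 to 5.62 in control arrays. The mean 3' minus 5' signal of the GAPDH and ACTB control probe sets, a measure of RNA integrity, was 3.35 ± 0.13 in mir-429 arrays and 3.90 ± 0.47 in control arrays (SD, n = 3 each; difference -0.55, two-sided exact permutation p = 0.2, with 0.1 the smallest that 3 against 3 allows). mir-429 replicate 1 had the lowest array median, 3.95, against 4.22 and 4.21 in replicates 2 and 3. Its part in the results was not tested beyond the fits without it. In bulk RNA, fewer cells of a type and less RNA per cell cannot be told apart.

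The comparison at 144 h asked which mRNAs still differed long after transfection. Of 12879 genes tested, 754 (5.85%) were called, 191 higher (1.48%) and 563 lower (4.37%) with mir-429. A change of at least 2-fold was seen in 28 of the higher and 91 of the lower genes. The median change of all genes tested was -0.04. The share of called genes that were higher was 25.3%, and it was 43.8% after cyclic loess, 37.0% after quantile scaling and 55.3% after subtraction of each array's median, which put the median change of all genes at 0.07. The balance of higher and lower genes thus changed with the scaling. Whichever of the 6 arrays was left out, 70 of the 191 higher and 190 of the 563 lower genes stayed called, and a gene is said below to hold where this was so. The 754 called genes became 326 without control replicate 2, 404 without control replicate 3, 496 without control replicate 1, 410 without mir-429 replicate 1, 400 without mir-429 replicate 2 and 659 without mir-429 replicate 3.

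**Figure D1:**
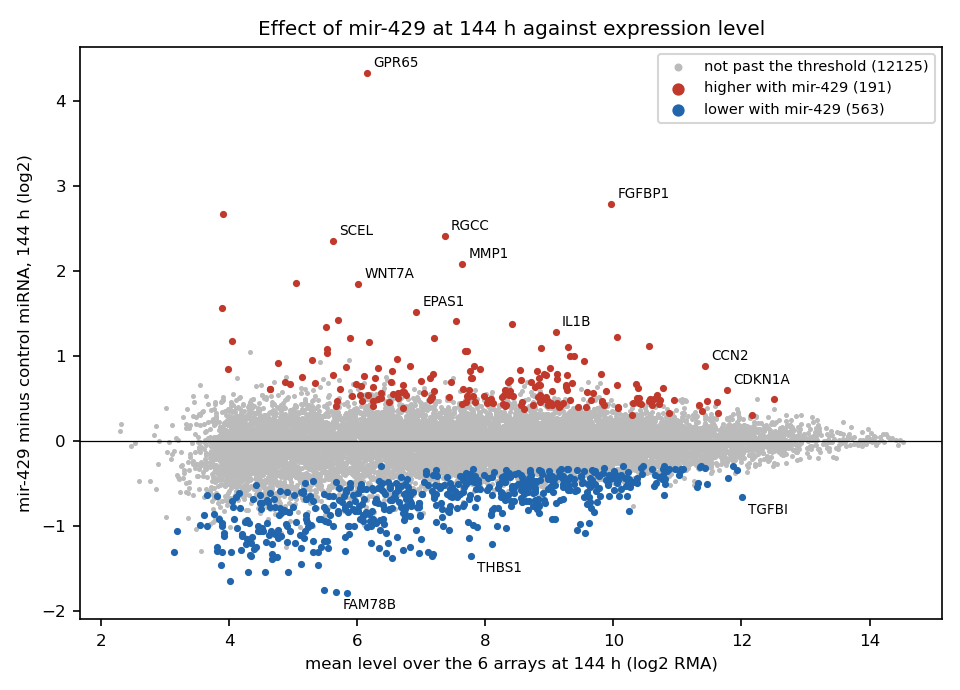
Change at 144 h (mir-429 minus control miRNA, log2, y axis) against the mean level over the 6 arrays (log2 RMA, x axis) for each of 12879 genes. The 191 higher genes (red) reach a fitted 4.33 for GPR65, whose control level is dim, and the 563 lower genes (blue) reach -1.79.

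The largest rise was that of GPR65, a receptor that senses extracellular protons. It read 8.56, 8.16 and 8.22 in mir-429 cells, against 4.13, 3.96 and 3.84 in control cells and 3.81, 3.46 and 3.54 in untransfected cells. The control level lay below the array medians, so its rise was at least 4.08 (limma adjusted p = 1.85e-09). FGFBP1, a secreted carrier that frees fibroblast growth factors from the matrix, read 11.50, 11.29 and 11.29 in mir-429 cells, against 8.96, 8.42 and 8.33 in control cells. It rose by 2.79 ± 0.17, or 6.92-fold (adjusted p = 1.4e-08), from a level that was already well above background in control cells. Both genes held, and in both the arms did not overlap. They were the 2 higher genes among 30 tested of a list of fibroblast growth factor, proton and lysolipid signalling genes, against 1.48% of all genes tested. That list, like the others, was written with earlier results of these data known, so the count is only a description. In that list FGFR1, a receptor for those factors, was lower by a change of -0.48 ± 0.12 (adjusted p = 0.0184), but 2 of its 4 probe sets above the array median had the opposite sign, and the call was lost with probe sets averaged (adjusted p = 0.578). It was also lost without control replicate 1 or 2 or mir-429 replicate 1 or 2 (adjusted p = 0.0626 to 0.1).

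RGCC, a regulator of the cell cycle and of complement responses, read 8.72, 8.33 and 8.67 in mir-429 cells, against 6.37, 6.24 and 5.87 in control cells, a rise of 2.41 ± 0.21 or 5.31-fold (adjusted p = 2.15e-06). SCEL, a protein of the cornified envelope of squamous epithelium, read 7.11, 6.82 and 6.47 in mir-429 cells, against 4.45, 4.57 and 4.30 in control cells, a rise of 2.36 ± 0.19 (adjusted p = 1.01e-06). In both genes the lowest mir-429 array lay more than 1 unit above the highest control array. EPAS1, the hypoxia-inducible factor HIF-2 alpha, read 7.86, 7.54 and 7.63 in mir-429 cells, against 6.30, 6.15 and 6.04 in control cells. The rise of EPAS1 was 1.51 ± 0.12 or 2.86-fold (adjusted p = 1.01e-06), and untransfected cells were at 6.30, 6.03 and 6.03. WNT7A, a secreted Wnt ligand, read 7.09, 6.66 and 7.06 in mir-429 cells, against 5.37, 5.10 and 4.81 in control cells (change 1.85 ± 0.22, adjusted p = 6.62e-05). SLPI, a secreted inhibitor of leukocyte proteases, changed by 1.42 ± 0.25 (adjusted p = 0.00197), and LCP1, an actin-bundling protein, by 1.34 ± 0.23 (adjusted p = 0.00177). PRCD, a small protein known from photoreceptors, changed by 1.42 ± 0.14 (adjusted p = 1.23e-05). RGCC, SCEL, EPAS1, WNT7A, SLPI, LCP1 and PRCD all held. The size of some rises depended on the processing. In the alternatives the change was as low as 0.54 for EPAS1, 0.59 for PRCD, 1.43 for SCEL and 1.71 for RGCC. KISS1, the precursor of kisspeptin, was higher by 1.38 ± 0.30 (adjusted p = 0.0106), a call lost without control replicate 2 (adjusted p = 0.0509) or 3 (adjusted p = 0.0537). ZBED2, a zinc finger transcription factor, was below the array medians in control cells and rose by at least 1.01 (fitted change 2.67 ± 0.30, adjusted p = 4.77e-05).

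**Figure D2:**
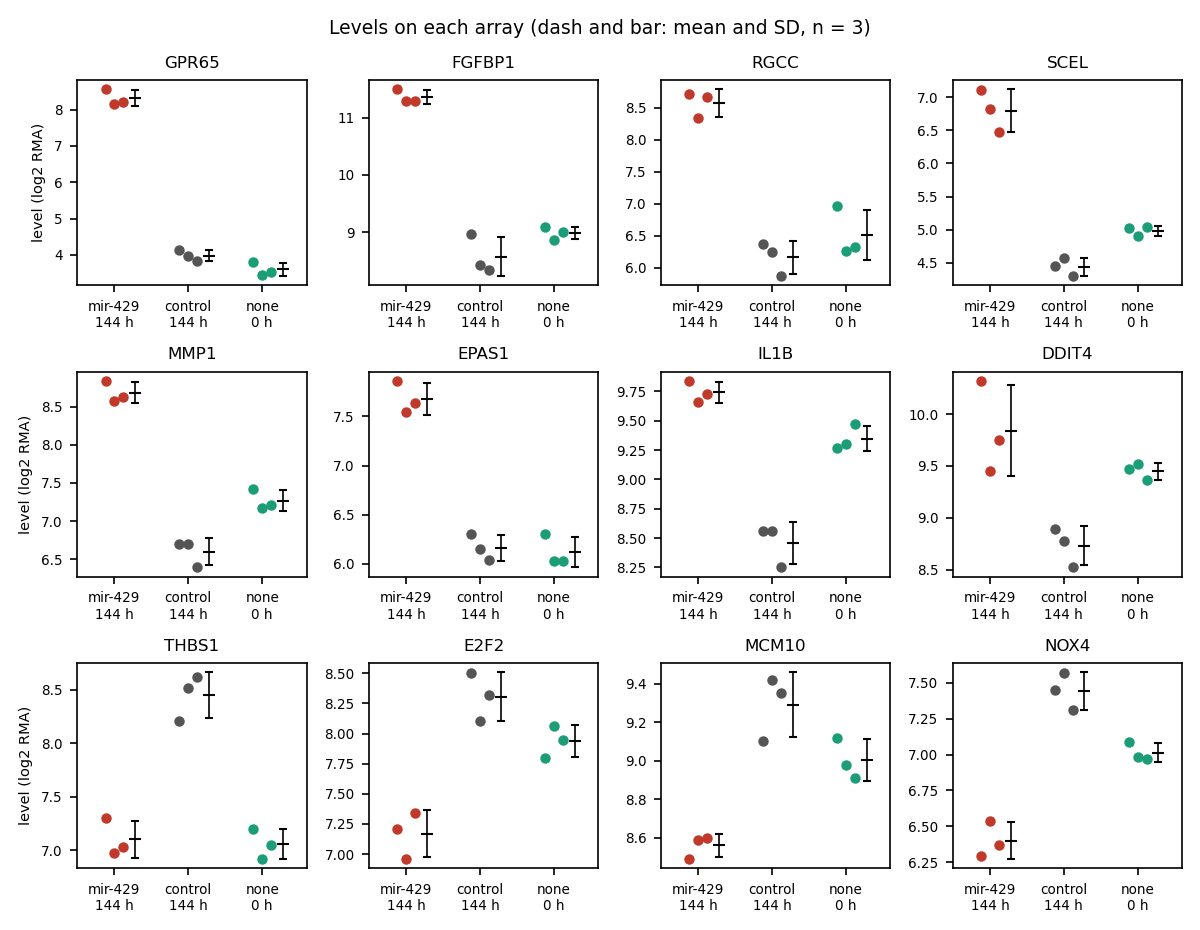
Log2 RMA levels of 12 genes on each of the 3 mir-429 and 3 control arrays at 144 h and the 3 untransfected arrays at 0 h. Points are arrays, dashes and bars are means and SDs, and each y axis has its own range. For all 12 genes the mir-429 and control points do not overlap, and for THBS1 the untransfected points lie with the mir-429 points.

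The largest fall was that of ZSCAN31, a zinc finger protein of the SCAN family. It read 4.48, 5.08 and 5.30 in mir-429 cells, against 6.81, 6.71 and 6.70 in control cells (change -1.79 ± 0.19, adjusted p = 2.3e-05). FAM78B read 4.58, 4.83 and 4.95 in mir-429 cells, against 6.27, 6.65 and 6.76 in control cells (change -1.78 ± 0.23, adjusted p = 0.000197). DNER, a neuronal ligand of Notch, read 6.41, 6.55 and 6.5 in mir-429 cells, against 7.77, 7.88 and 7.86 in control cells (change -1.35 ± 0.15, adjusted p = 4.33e-05). In DNER the SD within an arm was 0.07 in mir-429 and 0.06 in control cells, far below the difference between them. C3orf80 had the widest spread of these, at 3.70, 5.19 and 4.96 in mir-429 cells, against 6.17, 6.41 and 6.51 in control cells (change -1.75 ± 0.25, adjusted p = 0.000446). ATOH8, a basic helix-loop-helix transcription factor, changed by -1.54 ± 0.26 (adjusted p = 0.00166), BEND6 by -1.44 ± 0.21 (adjusted p = 0.000395) and the non-coding LINC01119 by -1.45 ± 0.17 (adjusted p = 5.84e-05). ZNF117, another zinc finger gene, changed by -1.38 ± 0.24 (adjusted p = 0.00177). These 8 genes held, but in the alternatives the change was as small as -0.57 for ZNF117 and -0.87 for ATOH8. In 7 further named falls the mir-429 level lay below the array medians, so the change is a bound. It was -1.20 or lower for ZNF431, -1.19 for the semaphorin co-receptor PLXNA4, -1.08 for the sulfatase ARSI, -0.94 for the junction protein JAM2, -0.89 for the folate receptor FOLR1, -0.71 for MOBP and -0.47 for DCAF4L1. In the alternatives the fitted change was as small as -0.62 for PLXNA4 and -0.69 for FOLR1, short of these bounds. The FOLR1 call (adjusted p = 0.03) was lost in 5 of 6 fits without an array (adjusted p up to 0.144, without control replicate 2).

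Known targets of the miR-200 family were called at 144 h at shares near those of all genes. Of 52 tested targets, 0 were higher and 3 lower, against 1.48% and 4.37% of all genes tested, and their median change was -0.06, against -0.04 for all genes. ADAM12, a cell surface metalloprotease, read 6.05, 6.39 and 6.43 in mir-429 cells, against 7.13, 6.99 and 7.08 in control cells (change -0.78 ± 0.12, adjusted p = 0.000649). MYB, a transcription factor of proliferating cells, read 6.25, 6.14 and 6.2 in mir-429 cells, against 6.74, 6.93 and 6.99 in control cells (change -0.69 ± 0.15, adjusted p = 0.00817). Both held, although the MYB call was lost where the probe sets of a gene were averaged (adjusted p = 0.0523). TGFB2, a secreted transforming growth factor, changed by -0.83 ± 0.23 (adjusted p = 0.0368), a call lost without control replicate 2 or 3 or mir-429 replicate 1 or 2 (adjusted p = 0.0742 to 0.194), and after cyclic loess (adjusted p = 0.0669), quantile scaling (adjusted p = 0.0743) or median subtraction (adjusted p = 0.1). On TGFB2 untransfected cells, at 5.73, 5.59 and 5.73, were nearer to the mir-429 cells (mean 5.55) than to the control cells (mean 6.38). ZEB1 read 10.51, 10.53 and 10.32 in mir-429 cells, against 10.56, 10.67 and 10.56 in control cells. Its change was -0.14 ± 0.15 (adjusted p = 0.655), and that of ZEB2 was -0.33 ± 0.18 (adjusted p = 0.329). The matrix protein FN1 was at -0.12 ± 0.12 (adjusted p = 0.663), the intermediate filament gene VIM at 0.15 ± 0.11 (adjusted p = 0.481) and N-cadherin (CDH2) at -0.14 ± 0.09 (adjusted p = 0.43).

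Of 40 tested epithelial genes, 8 were higher and 1 lower, against 1.48% and 4.37% of all genes tested. Their median change was 0.13, against -0.04 for all genes, and it was 0.56 at 24 h and 0.46 at 48 h. The 8 were 5 without control replicate 1, 2 or 3 or mir-429 replicate 1, and 4 without mir-429 replicate 2. The list names 77 genes, of which 67 had a probe set, so 27 with a probe set were too dim to test, among them CDH1 and EPCAM. A gene could pass the level filter through the arm in which it was high. CDS1, an enzyme of phospholipid synthesis, read 6.07, 5.80 and 6.09 in mir-429 cells, against 4.25, 4.09 and 4.02 in control cells, a rise of at least 1.75 (adjusted p = 0.00188). In the alternatives the fitted rise of CDS1 was as low as 1.07, short of that bound. ESRP1, a splicing factor of epithelial cells, read 7.56, 7.06 and 7.17 in mir-429 cells, against 6.39, 6.38 and 6.34 in control cells (change 0.89 ± 0.13, adjusted p = 0.000539). The desmosomal protein DSP read 9.46, 9.50 and 9.37 in mir-429 cells, against 8.63, 8.63 and 8.49 in control cells (change 0.86 ± 0.12, adjusted p = 0.000293). The arms of ESRP1 and DSP did not overlap, and the control arrays of ESRP1 lay with the untransfected arrays, at 6.22, 6.47 and 6.36. PATJ, a scaffold of tight junctions, changed by 0.69 ± 0.13 (adjusted p = 0.00434). These 4 held, while MAP7, a microtubule-binding protein (1.03 ± 0.23, adjusted p = 0.0106), was lost without mir-429 replicate 2 (adjusted p = 0.0567). With probe sets averaged the MAP7 change was 0.50 and its call was lost too (adjusted p = 0.208). SPINT2, a serine protease inhibitor (0.87 ± 0.22, adjusted p = 0.026), was lost in 5 of 6 fits without an array (adjusted p = 0.0592 to 0.115), and the keratin KRT18 (0.50 ± 0.14, adjusted p = 0.0492) in all 6 (adjusted p = 0.0557 to 0.199). The epithelial keratin KRT80 went the other way, at 8.52, 8.15 and 8.56 in mir-429 cells, against 9.25, 9.22 and 9.14 in control cells (change -0.79 ± 0.16, adjusted p = 0.00721). Untransfected cells read 8.46, 8.47 and 8.53, so on KRT80 they lay with the mir-429 cells and the control cells stood apart.

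Of 59 tested genes of the unfolded protein and amino acid stress response, 10 were called higher and 0 lower, against 1.48% and 4.37% of all genes tested, and 49 were not called. Their median change was 0.19, with 13 of the 59 below 0. In 28 of the 59 all mir-429 arrays lay above all control arrays, against 13% of all genes, and in 3 below, while the arms did not overlap in either direction in 33.9% of all genes. The 10 were 6 without control replicate 2. The median lay between 0.16 and 0.30 in the alternatives that kept all arrays. DDIT4, an inhibitor of mTOR signalling induced by stress, read 10.32, 9.45 and 9.75 in mir-429 cells, against 8.89, 8.78 and 8.52 in control cells (change 1.11 ± 0.17, adjusted p = 0.000806). GDF15, a secreted stress hormone, read 9.33, 9.10 and 9.22 in mir-429 cells, against 8.44, 8.31 and 8.45 in control cells (change 0.82 ± 0.15, adjusted p = 0.0035). The stress transcription factor DDIT3 read 8.24, 8.11 and 8.12 in mir-429 cells, against 7.20, 7.45 and 7.61 in control cells (change 0.74 ± 0.15, adjusted p = 0.0076). In these 3 genes untransfected cells were nearer to mir-429 than to control cells, with means of 9.45 for DDIT4, 8.92 for GDF15 and 7.87 for DDIT3. ASNS, the asparagine synthetase, read 10.23, 10.29 and 10.02 in mir-429 cells, against 9.59, 9.59 and 9.60 in control cells (change 0.59 ± 0.11, adjusted p = 0.00392). HERPUD1, a protein of endoplasmic reticulum degradation, changed by 0.67 ± 0.12 (adjusted p = 0.00214), and the cystine transporter SLC7A11 by 0.66 ± 0.14 (adjusted p = 0.00783). DDIT4, GDF15, DDIT3, ASNS, HERPUD1 and SLC7A11 held, but where probe sets were averaged the calls of ASNS (adjusted p = 0.551), HERPUD1 (adjusted p = 0.104) and SLC7A11 (adjusted p = 0.0995) were lost. ATF4, the transcription factor that drives many of these genes, was at 0.08 ± 0.08 (adjusted p = 0.662) and the chaperone HSPA5 at 0.31 ± 0.09 (adjusted p = 0.0681).

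The promoter of ASNS (RefSeq, GRCh38.p14, chr7:97872359-97872658, minus strand), from 250 bases before to 50 after the gene's start, is shown because ATF4 is known to act there. The capitals mark TGATGNAA, searched on both strands, and the match starts at position -68 from the gene's start. Of 27305 promoters 3.67% held this motif, and of the 54 tested members with a promoter 9 held it. It was in 4 of 9 higher members, ASNS, HERPUD1, ATF3 and CHAC1. CHAC1, which degrades glutathione, changed by 0.92 ± 0.23 (adjusted p = 0.024), a call that did not hold. ATF3 changed by 0.56 ± 0.12 (adjusted p = 0.00879), a call lost without control replicate 2 (adjusted p = 0.0626) and with probe sets averaged (adjusted p = 0.335).
ASNS: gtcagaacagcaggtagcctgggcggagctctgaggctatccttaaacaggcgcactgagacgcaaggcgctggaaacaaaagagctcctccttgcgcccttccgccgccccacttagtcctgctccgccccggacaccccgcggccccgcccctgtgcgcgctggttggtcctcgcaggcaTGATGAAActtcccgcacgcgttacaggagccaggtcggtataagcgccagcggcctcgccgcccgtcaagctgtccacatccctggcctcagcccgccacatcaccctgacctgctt

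Of 68 tested DNA replication genes, 0 were higher and 10 lower, against 1.48% and 4.37% of all genes tested, and 58 were not called. Their median change was -0.17, with 12 of the 68 above 0, and it lay between -0.18 and -0.07 in the alternatives that kept all arrays. The 10 were 5 without control replicate 2 or 3, 6 without mir-429 replicate 1, and 4 after subtraction of the array medians. In 30 of the 68 all mir-429 arrays lay below all control arrays, against 20.9% of all genes. E2F2, a transcription factor of the G1 to S transition, read 7.21, 6.96 and 7.34 in mir-429 cells, against 8.50, 8.10 and 8.32 in control cells (change -1.14 ± 0.15, 2.2-fold lower, adjusted p = 0.000224). MCM10, a factor that activates the replicative helicase, read 8.49, 8.59 and 8.60 in mir-429 cells, against 9.10, 9.42 and 9.35 in control cells (change -0.73 ± 0.10, adjusted p = 0.000288). GINS3, a subunit of that helicase, read 9.34, 9.28 and 9.52 in mir-429 cells, against 10.09, 10.17 and 10.03 in control cells (change -0.72 ± 0.14, adjusted p = 0.00435). The arms of these 3 did not overlap. The origin licensing factor CDT1 changed by -0.62 ± 0.12 (adjusted p = 0.00519) and the phosphatase CDC25A by -0.45 ± 0.09 (adjusted p = 0.00519). These 5 genes held, and with probe sets averaged CDT1 (adjusted p = 0.465) and CDC25A (adjusted p = 0.197) lost their calls. CDC25A also lost it after subtraction of the array medians (adjusted p = 0.069). The other 5 lower genes were E2F8, a repressor of the E2F family (change -0.56 ± 0.12, adjusted p = 0.0116), the primase-associated polymerase subunit POLA1 (-0.40 ± 0.10, adjusted p = 0.0174), the helicase subunit GINS2 (-0.36 ± 0.09, adjusted p = 0.026), cyclin E1 (CCNE1, -0.42 ± 0.11, adjusted p = 0.0324) and the exonuclease EXO1 (-0.38 ± 0.10, adjusted p = 0.037). Each of these was lost in at least 1 fit without an array. Among members not called, the sliding clamp PCNA was at 0.04 ± 0.12 (adjusted p = 0.905) and the nucleotide enzyme TYMS at 0.07 ± 0.09 (adjusted p = 0.722). Of 83 mitosis genes 1 was lower, against 4.37% of all genes tested, and of 44 DNA repair genes 0 were called, against 5.85%. The lower mitosis gene was SGO1, a protector of centromere cohesion (change -0.92 ± 0.14, adjusted p = 0.000806). CDKN1A, the cell cycle inhibitor p21, read 12.17, 11.97 and 12.08 in mir-429 cells, against 11.53, 11.43 and 11.46 in control cells (change 0.60 ± 0.12, adjusted p = 0.00693), and it held. It was among 3 higher and 1 lower of 39 p53 target genes, against 1.48% and 4.37% of all genes tested. EZH2, TET2, CREBBP, CBX2 and HDAC4 were the 5 lower of 64 chromatin regulators, against 4.37% of all genes tested, with changes from -0.68 to -0.46. The 5 were 0 after subtraction of the array medians, 0 without a level filter, 2 after cyclic loess, 3 after quantile scaling, and 0 to 2 whichever of the 6 arrays was left out, with 0 without control replicate 2 or mir-429 replicate 2. Each was lost in at least 4 of 6 fits without an array (adjusted p up to 0.123, 0.123, 0.103, 0.216 and 0.232).

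The E2F motif TTTNNCGC was searched on both strands in the same window of 300 bases, and 6.9% of all promoters held it. Of 57 tested replication genes with a promoter 29 held it, and of 9 lower ones 7 did. The promoters of E2F2 (chr1:23531184-23531483, minus strand, 3 matches, 2 of them overlapping) and CDT1 (chr16:88803539-88803838, plus strand, 2 matches) are shown with the motif in capitals, from RefSeq GRCh38.p14. No match to these letters was found in the windows of MCM10 and CCNE1. The AP-1 motif TGANTCA and the SREBP motif TCACNCCA were searched in the same way, for lists given below. AP-1 was in 7.76% of all promoters and 4 of 20 tested protease genes, with 1 of 3 higher ones. Of 34 tested inflammatory genes 3 held it, with 1 of 2 higher and 0 of 2 lower ones. SREBP was in 3.93% of all promoters and 4 of 33 tested sterol list genes, with 1 of 5 higher ones.
E2F2: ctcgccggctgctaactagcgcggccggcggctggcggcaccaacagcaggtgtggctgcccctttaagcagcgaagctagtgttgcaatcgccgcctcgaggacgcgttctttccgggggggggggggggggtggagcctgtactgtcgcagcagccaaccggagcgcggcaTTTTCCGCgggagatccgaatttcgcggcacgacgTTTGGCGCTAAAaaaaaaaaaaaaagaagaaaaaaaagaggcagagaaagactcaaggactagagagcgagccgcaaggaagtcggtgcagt
CDT1: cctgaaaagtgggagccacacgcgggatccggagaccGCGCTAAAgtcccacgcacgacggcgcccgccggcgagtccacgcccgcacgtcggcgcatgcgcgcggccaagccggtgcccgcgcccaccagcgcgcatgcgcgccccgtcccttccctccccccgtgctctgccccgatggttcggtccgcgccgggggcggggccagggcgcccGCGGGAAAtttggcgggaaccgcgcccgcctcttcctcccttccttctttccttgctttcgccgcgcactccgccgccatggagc

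**Figure D3:**
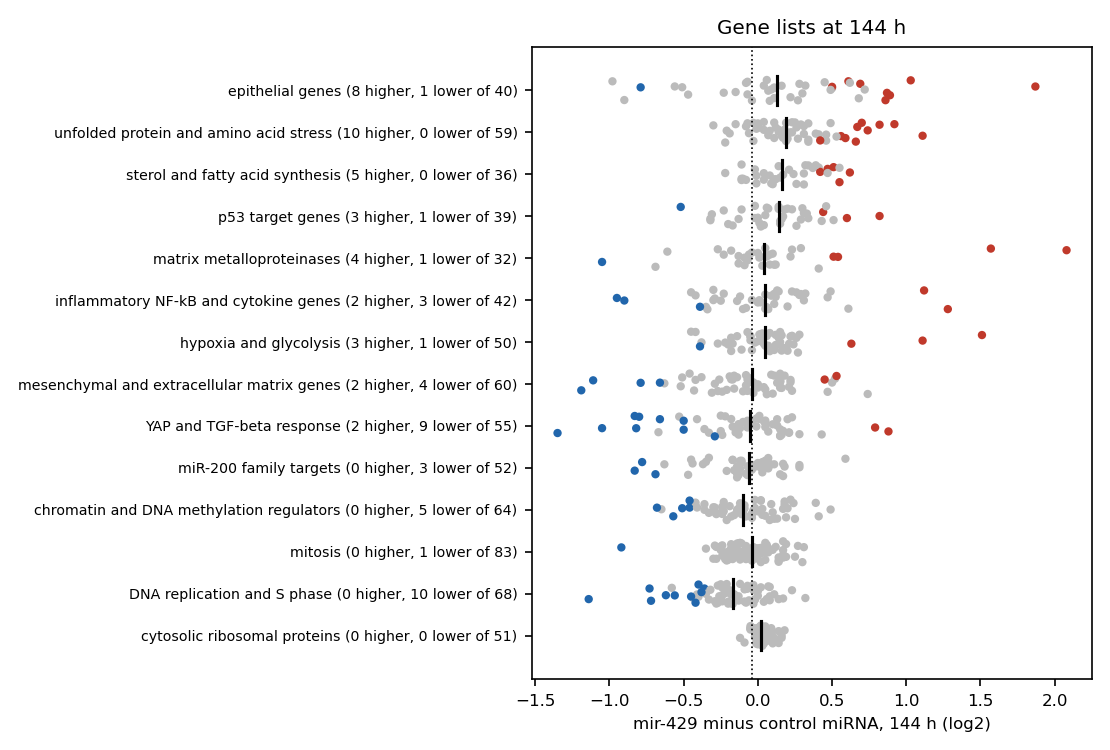
Change at 144 h (log2, x axis) of each tested gene of 14 lists, with higher genes in red, lower in blue and others in grey. Black bars are list medians and the dotted line is the median of all genes, -0.04. The unfolded protein list has its median at 0.19 and the DNA replication list at -0.17, with 0 lower and 0 higher genes.

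Secreted proteases and cytokines were the next group. Among 32 genes of metalloproteinases, the plasminogen system and their inhibitors, 4 were higher and 1 lower, against 1.48% and 4.37% of all genes tested. The 4 were 2 without control replicate 2 or 3 or mir-429 replicate 1 or 2. The interstitial collagenase MMP1 read 8.84, 8.58 and 8.63 in mir-429 cells, against 6.70, 6.70 and 6.39 in control cells (change 2.08 ± 0.17, 4.24-fold, adjusted p = 1.42e-06). The stromelysin MMP10 lay below the array medians in control cells and rose by at least 0.44 (fitted change 1.57 ± 0.22, adjusted p = 0.000395). These 2 held. PLAU, the urokinase plasminogen activator, changed by 0.54 ± 0.14 (adjusted p = 0.0227), a call lost without control replicate 2 or 3 or mir-429 replicate 1 or 2 (adjusted p = 0.0529 to 0.109). The urokinase receptor PLAUR was at 0.22 ± 0.13 (adjusted p = 0.375) and the inhibitor TIMP1 at 0.10 ± 0.12 (adjusted p = 0.694). Of 42 inflammatory genes 2 were higher and 3 lower, against 1.48% and 4.37% of all genes tested. These counts are small and are only a description. The cytokine IL1B read 9.84, 9.66 and 9.73 in mir-429 cells, against 8.56, 8.56 and 8.25 in control cells (change 1.28 ± 0.13, adjusted p = 1.23e-05). Untransfected cells, at 9.27, 9.30 and 9.47, lay between the arms. Their mean of 9.35 was nearer to mir-429 cells (mean 9.74) than to control cells (mean 8.46). Control cells at 144 h were themselves lower than untransfected cells in IL1B, by a change of -0.89 (limma adjusted p = 0.00211). IL1A read 11.25, 11.30 and 10.80 in mir-429 cells, against 10.09, 10.01 and 9.90 in control cells (change 1.12 ± 0.16, adjusted p = 0.000341), a call lost with probe sets averaged (adjusted p = 0.108). CD83, a surface protein of activated antigen-presenting cells, changed by -0.90 ± 0.14 (adjusted p = 0.000613). The chemokine CXCL8 was at 0.28 ± 0.15 (adjusted p = 0.329) and IL6 at -0.30 ± 0.17 (adjusted p = 0.366).

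Response genes of YAP and TGF-beta went both ways, with 2 of 55 higher and 9 lower, against 1.48% and 4.37% of all genes tested, and their median of -0.05 ranged from -0.09 to 0.06 in the alternatives that kept all arrays. The 9 were 5 without control replicate 2 or 3 or mir-429 replicate 2, and 6 without mir-429 replicate 3. THBS1, a matricellular glycoprotein, read 7.30, 6.97 and 7.03 in mir-429 cells, against 8.21, 8.52 and 8.62 in control cells (change -1.35 ± 0.12, adjusted p = 4.76e-06). Untransfected cells read 7.20, 6.92 and 7.05, so on THBS1 they lay with the mir-429 cells and the control cells stood apart. SMAD7, the feedback inhibitor of TGF-beta receptors, read 5.06, 5.0 and 5.28 in mir-429 cells, against 5.78, 5.99 and 6.02 in control cells (change -0.82 ± 0.13, adjusted p = 0.00125). TGFBI, a secreted matrix protein, read 11.75, 11.61 and 11.65 in mir-429 cells, against 12.30, 12.35 and 12.35 in control cells (change -0.66 ± 0.08, adjusted p = 9.09e-05). CCN2, the classic YAP target, went the other way at 11.83 to 11.93 in mir-429 cells, against 10.88 to 11.08 in control cells (change 0.88 ± 0.14, adjusted p = 0.00125), and so did the clock-related repressor BHLHE40 (0.79 ± 0.14, adjusted p = 0.00229). Of 60 mesenchymal and matrix genes 2 were higher and 4 lower, against 1.48% and 4.37% of all genes tested. The 2 higher were 1 without mir-429 replicate 2 and 0 without any other of the 6 arrays, and the 4 lower were 2 without control replicate 2. Of the 6, COL5A1, a chain of type V collagen (change -1.11 ± 0.17, adjusted p = 0.000747), and TGFBI held. The call of COL6A3 (adjusted p = 0.00954), a bound of -1.04 or lower, was lost without control replicate 2 (adjusted p = 0.0734). THBS1, SMAD7, TGFBI, CCN2 and BHLHE40 held.

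The list of sterol and fatty acid synthesis also holds regulators such as SREBF2 and INSIG1 and the exporter NPC1. It had 5 of 36 members higher and 0 lower, against 1.48% and 4.37% of all genes tested. Its median change was 0.16, which lay between 0.13 and 0.27 in the alternatives that kept all arrays. The 5 were 1 without control replicate 2 or 3, 2 without mir-429 replicate 2, and 3 without any other array of these arms. They were 2 with the 3' minus 5' signal as a covariate. NPC1, the lysosomal cholesterol exporter, read 11.17, 11.11 and 10.98 in mir-429 cells, against 10.56, 10.47 and 10.37 in control cells (change 0.62 ± 0.11, adjusted p = 0.00177). It held, but 1 of its 3 probe sets above the array median moved the other way, and the call was lost with probe sets averaged (adjusted p = 0.648). SREBF2, the transcription factor of sterol synthesis, was at 0.51 ± 0.12 (adjusted p = 0.0186), INSIG1, its retention factor, at 0.47 ± 0.13 (adjusted p = 0.042), ACSS2, an acetyl-CoA synthetase, at 0.55 ± 0.13 (adjusted p = 0.0154) and HSD17B7 at 0.42 ± 0.11 (adjusted p = 0.0319). Each of these 4 was lost in at least 3 of 6 fits without an array (adjusted p up to 0.0748 for SREBF2, 0.158 for INSIG1, 0.0682 for ACSS2 and 0.161 for HSD17B7). Among hypoxia and glycolysis genes 3 of 50 were higher and 1 lower, against 1.48% and 4.37% of all genes tested. EPAS1 and DDIT4 are given above, and NDRG1, a stress-responsive gene, changed by 0.63 ± 0.13 (adjusted p = 0.00863) and held. NOX4, the NADPH oxidase that makes hydrogen peroxide, read 6.29, 6.54 and 6.37 in mir-429 cells, against 7.45, 7.57 and 7.31 in control cells (change -1.04 ± 0.14, adjusted p = 0.000301). Of 51 cytosolic ribosomal protein genes and 61 oxidative phosphorylation genes 0 were called, against 5.85% of all genes tested, with medians of 0.02 and 0.04.

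Of 12 tested endothelial markers 2 were higher and 1 lower, against 1.48% and 4.37% of all genes tested. The endothelial cadherin CDH5 read 10.24, 10.14 and 10.21 in mir-429 cells, against 9.69, 9.46 and 9.09 in control cells (change 0.79 ± 0.13, adjusted p = 0.00141), and CD93 changed by -1.18 ± 0.20 (adjusted p = 0.00187). Both held, in opposite directions, although CD93 lost its call with probe sets averaged (adjusted p = 0.0931), and ROBO4, a guidance receptor, was higher by 0.45 ± 0.12 (adjusted p = 0.0385), a call lost in all 6 fits without an array (adjusted p up to 0.153). Other markers of the list read high in both arms, with ENG at 11.01 in mir-429 and 11.02 in control cells and TIE1 at 9.59 in mir-429 and 9.35 in control cells. PECAM1 and VWF read 2.78 to 3.97 and 3.62 to 4.23 in mir-429 cells, against 3.38 to 4.13 and 3.29 to 3.50 in control cells. WT1, a transcription factor of ovarian surface and serous carcinoma cells, read 8.26, 8.28 and 8.32 in mir-429 cells, against 8.71, 9.11 and 9.16 in control cells (change -0.71 ± 0.13, adjusted p = 0.00256).

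The effect at 144 h was then set against the effects at 24 and 48 h. Both differences and the 144 h effect itself share the 144 h arrays. The difference of effects was called in 2396 genes (18.6%) against 24 h, with 814 higher (6.32%) and 1582 lower (12.3%) at 144 h. Against 48 h it was called in 1219 genes (9.47%), with 495 higher (3.84%) and 724 lower (5.62%). The balance changed with the scaling here too. Higher and lower genes were 1043 and 1359 against 24 h after cyclic loess, 1041 and 1316 after quantile scaling and 887 and 919 after median subtraction. Against 48 h they were 670 and 631, 616 and 625, and 509 and 425 in the same settings. In the plot of the effect by time, genes fall into several kinds of course. The effect on MMP1 was -1.30 ± 0.17 after 24 h, -2.16 ± 0.17 after 48 h and 2.08 ± 0.17 after 144 h, a difference of 4.24 between 144 and 48 h (adjusted p = 1.73e-08). The effect on IL1B was -1.59 ± 0.13 after 24 h, -1.50 ± 0.13 after 48 h and 1.28 ± 0.13 after 144 h. Both thus turned from lower to higher. THBS1 turned the other way, with 1.06 ± 0.12 after 24 h, 1.01 ± 0.12 after 48 h and -1.35 ± 0.12 after 144 h (difference against 24 h -2.41, adjusted p = 2.05e-07). TGFB2 had effects of 1.37 ± 0.23 after 24 h, 0.99 ± 0.23 after 48 h and -0.83 ± 0.23 after 144 h. The effect on E2F2 was 0.81 ± 0.15 after 24 h, 0.16 ± 0.15 after 48 h and -1.14 ± 0.15 after 144 h. The 48 h arrays of both arms had much less 5' signal, with 3' minus 5' differences of 7.23 to 8.73, against 3.22 to 4.32 at 144 h.

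RGCC rose late, with effects of 0.16 ± 0.21 after 24 h, 0.51 ± 0.21 after 48 h and 2.41 ± 0.21 after 144 h (difference against 24 h 2.25, adjusted p = 0.000109). GPR65 had fitted effects of 0.98, 1.35 and 4.33 at the same times, which are not exact because its control level lay below the array medians. Among the effects that faded were those on FN1 and ZEB1. FN1 was at -1.70 ± 0.12 after 24 h, -2.66 ± 0.12 after 48 h and -0.12 ± 0.12 after 144 h, with a difference against 24 h of 1.59 (adjusted p = 1.45e-05), and ZEB1 was at -1.29 ± 0.15, -1.72 ± 0.15 and -0.14 ± 0.15 (difference 1.15, adjusted p = 0.0012). ESRP1 was at 0.93 ± 0.13, 2.92 ± 0.13 and 0.89 ± 0.13, with a difference of -2.04 against 48 h (adjusted p = 1.81e-06) and of -0.04 ± 0.19 against 24 h (adjusted p = 0.91). DNER was at -1.39 ± 0.15, -2.11 ± 0.15 and -1.35 ± 0.15, with a difference of 0.04 ± 0.21 against 24 h (adjusted p = 0.919) and 0.75 ± 0.21 against 48 h (adjusted p = 0.0314).

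**Figure D4:**
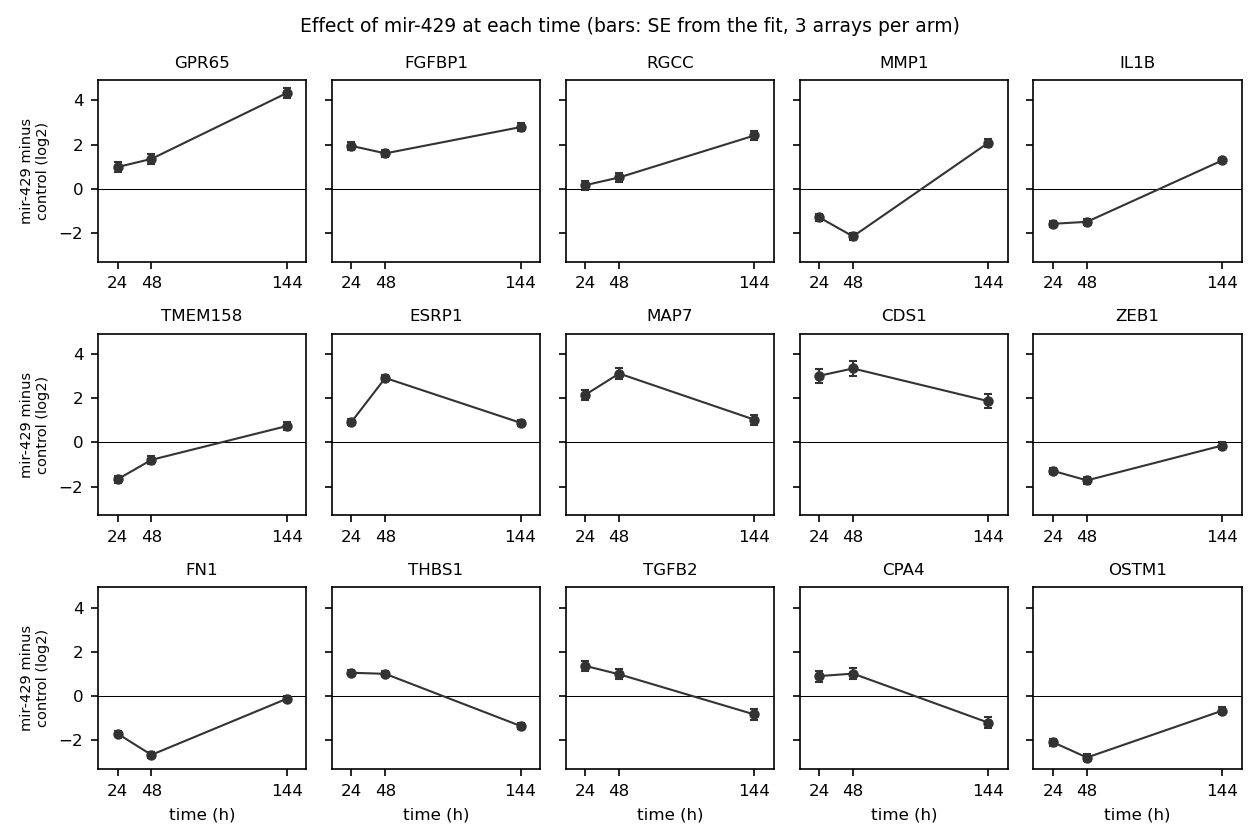
Effect of mir-429 (mir-429 minus control, log2, y axis) at 24, 48 and 144 h (x axis, to scale) for 15 genes; points are fitted effects and bars are SEs, with 3 arrays per arm and time. MMP1 and IL1B cross from below to above 0, THBS1, TGFB2 and CPA4 cross from above to below, and ZEB1 and FN1 end near 0. GPR65, CDS1 and CPA4 lay below the array medians in an arm at 144 h, so their points are not exact.

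Where the called genes lay in untransfected cells was described by distance of group means, with control arrays used in both the call and the distance. Untransfected cells were nearer to control than to mir-429 cells in 162 of the 191 higher genes (84.8%) and 490 of the 563 lower genes (87.0%), against 66.6% of all genes tested. On the first principal component of these 9 arrays, with 45.6% of the variance, mir-429 arrays lay at -26.95 to -19.24, control arrays at 2.94 to 6.27 and untransfected arrays at 17.54 to 19.09. Control cells at 144 h lay apart from untransfected cells as well.

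**Figure D5:**
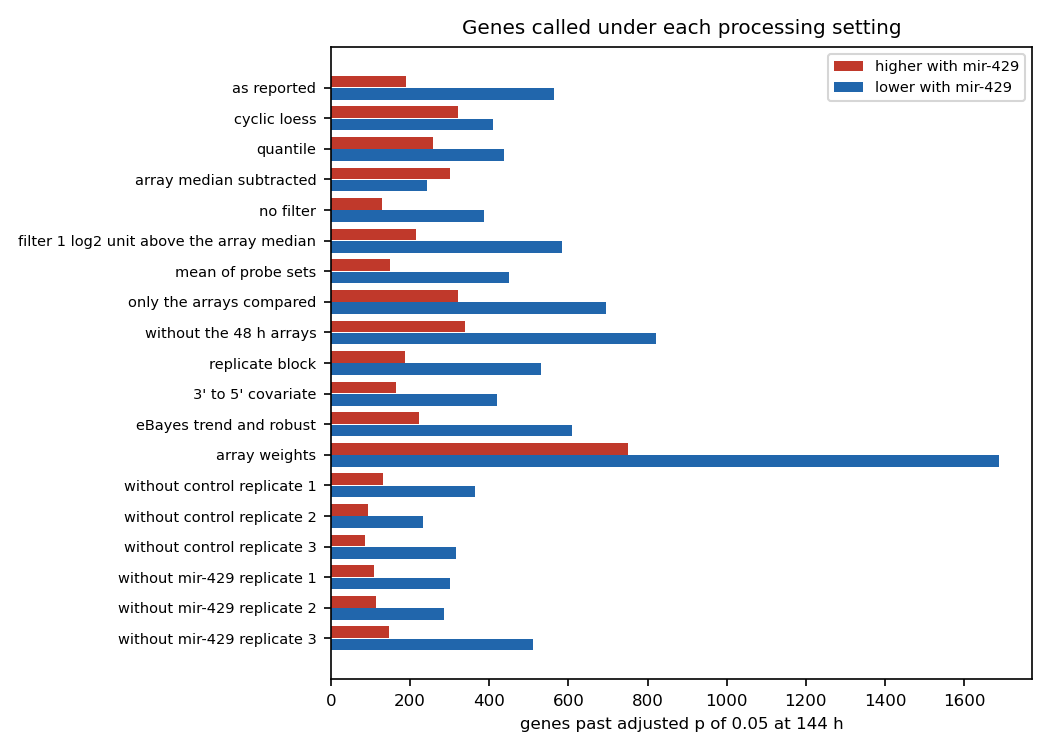
Genes past an adjusted p of 0.05 at 144 h (x axis) in each processing setting (y axis), with higher genes in red above lower genes in blue. As reported there are 191 and 563, and lower genes outnumber higher ones in each setting except after subtraction of the array medians, with 302 and 244.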

How the data were processed

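RNA of 21 arrays of HEY cells was measured on Affymetrix 3' expression arrays after amplification from the 3' end, per the labels' protocols. Per the submitters' processing notes, the authors summarised probes by RMA, and the deposited files hold a log2 level for each probe set. The RMA version, software and settings are not given in the sources used. Values ran from 0.75 to 14.97 and were not scaled further. Of 54675 probe sets, 41097 had 1 gene symbol in GEO's platform annotation, 1801 several and 11777 none. A gene was represented by its probe set with the highest mean, giving 19775 genes, and the 12879 that exceeded an array's median on 3 or more arrays were tested, with 6896 set aside.

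Linear models were fitted in limma 3.58.1 (R 4.3.3), moderated by eBayes, with a mean for each of 7 groups, leaving 14 degrees of freedom per gene plus 3.93 from eBayes, two-sided, with Benjamini-Hochberg adjustment over all genes tested. All 7 groups contribute to each gene's SE. The SD of differences between arrays of a group was 0.269 to 0.33 in mir-429 and 0.2 to 0.255 in control arrays at 144 h, and 0.392 to 0.472 in control arrays at 48 h. The number of arrays limits the precision, as there is no read depth. In a simulation of the 144 h comparison over 12879 genes, the share recovered was 34.3% for a change of 0.5 (67 genes), 85.1% for 1 (67 genes) and 100% for 2 (66 genes), with 1 false call among 147, and 0 calls were made without change. The simulation drew independent noise with the same spread for a gene on all arrays. It held no difference in spread between groups and no shift of a whole array, so its false calls need not carry over to these data. Where a group's mean lay below its array medians, its values were raised to the median and the change is a bound. The adjusted p of such a gene is that of the fit to values that were not raised.

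The members, the 28 gene lists, the tests and the rule for named genes were chosen with earlier results of these data known. Named genes were the 15 largest called rises and 15 largest called falls with arms that did not overlap and official symbols, up to 5 called members per list by smallest p, among called genes the 5 largest differences of effect each way against 24 and against 48 h, and ZEB1, ZEB2, CDH1, EPCAM, VIM, FN1, CDH2 and ESRP1. List members that were not called are named where they complete a step. Promoters and microRNAs were matched by symbol and name in RefSeq tables of GRCh38.p14. Alternatives were scaling, the level filter, the summary of probe sets, the arrays in the fit, the 3' to 5' signal as a covariate, array weights, a replicate block and each array left out. Figures were drawn with matplotlib 3.10.9 in Python 3.11.15, and permutation tests used scipy 1.17.1.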

Additional observations from a re-analysis of the deposited data

Results flagged for a closer look

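Differences between the effect of mir-429 at 144 h and at an earlier time were tested in the same limma fit, and genes called at 144 h with the largest differences are given here. GPR65 and ZBED2 lay below the array medians in control cells at 144 h and CPA4 in mir-429 cells, so their differences are fitted values that are neither exact nor bounds. Against 24 h, 2396 genes differed, and 1272 with the 3' minus 5' signal, which differed between the arms at 24 h, as a covariate. Among genes called at 144 h, the effect was higher by 3.39 for MMP1, 3.36 for GPR65, 2.87 for IL1B, 2.41 for TMEM158 and 2.25 for RGCC. TMEM158, a membrane protein induced by RAS, was called at 144 h by a change of 0.74 ± 0.17, lost without control replicate 3 (adjusted p = 0.0684). The difference was -2.44 for C3orf80, -2.41 for THBS1, -2.19 for TGFB2, -2.12 for ZNF214 and -2.11 for the carboxypeptidase CPA4. The ZNF214 call at 144 h (adjusted p = 0.0192) was lost in 4 of 6 fits without an array (adjusted p up to 0.104), and that of TGFB2 in 4 (adjusted p up to 0.194).

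Against 48 h, 1219 genes differed. The effect was higher by 4.24 for MMP1, 2.99 for GPR65, 2.78 for IL1B, 2.12 for OSTM1 and 2.0 for MTSS1, a membrane-bending protein. OSTM1, a lysosomal membrane protein, was at -2.78 at 48 h and -0.66 at 144 h, and 2 of its 4 probe sets above the array median had the opposite sign at 144 h. Its call at 144 h (adjusted p = 0.0145) was lost without control replicate 2 (adjusted p = 0.0655) or 3 (adjusted p = 0.0644) or mir-429 replicate 2 (adjusted p = 0.0764). It was also lost with probe sets averaged (adjusted p = 0.683) and after subtraction of the array medians (adjusted p = 0.0833). The MTSS1 call at 144 h was lost with probe sets averaged (change 0.23, adjusted p = 0.0984). The difference was -2.58 for ZBED2, -2.35 for THBS1, -2.33 for SPINT2, -2.22 for CPA4 and -2.09 for MAP7. The 48 h arrays of both arms had larger 3' minus 5' differences than the 144 h arrays, and with this measure as a covariate 792 genes differed.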

How the results depend on the processing

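The count of 754 genes at 144 h was 326 to 659 with each array left out. It was 1160 without the 48 h arrays, 2437 with array weights, whose estimation did not fully converge, and 1017 with only the arrays compared. It was 585 with the 3' to 5' covariate, 515 without a filter, 546 after subtraction of array medians and 600 with probe sets averaged. The count of 2396 against 24 h was 1499 to 3124 with each array left out, 1272 with the 3' to 5' covariate, 1606 with probe sets averaged and 4816 with array weights. The count of 1219 against 48 h was 819 to 1484 with each array left out and 792 with the covariate. The causes were not tested. The 3' minus 5' difference of -0.55 was -0.42 for GAPDH and -0.69 for ACTB alone. No named gene changed direction in an alternative while called at 144 h. Replicate numbers are shared between arms, but the correlations of same-numbered deviations were 0.203, -0.059 and -0.042, so the numbers were not taken as pairs. With the replicate block the counts were 717, 2320 and 1162, and 6 named genes lost their call. Of the named genes with a value, 18 to 45 lost their call with 1 array left out and 28 with probe sets averaged. For genes below the array medians in an arm, only bounds can be given.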

Other observations

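Genes of ribosome biogenesis and RNA polymerase I were listed after their values were seen, so their counts are a description. Counts of this list under the other scalings were not made. Of 103 tested, 0 were higher and 14 lower at 144 h, against 1.48% and 4.37% of all genes tested, with a median change of -0.11, against -0.04 for all genes. The 14 include POLR1A, the large catalytic subunit of RNA polymerase I, which read 7.62, 7.75 and 8.06 in mir-429 cells, against 8.52, 8.94 and 9.02 in control cells (change -1.02 ± 0.17, limma adjusted p = 0.00126). UBTF, the factor that opens ribosomal DNA for transcription, read 8.06, 7.93 and 7.90 in mir-429 cells, against 8.67, 8.59 and 8.63 in control cells (change -0.67 ± 0.10, adjusted p = 0.000455). Of the 14, only POLR1A, UBTF, NOL6, EXOSC2, POP1 and RPP40 stayed called whichever of the 6 arrays was left out.

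Zinc finger genes, taken after their values were seen as symbols that begin with ZNF, ZSCAN, ZKSCAN or ZFP and a digit, were 41 of the 563 lower genes (7.28%) and 1 of the 191 higher genes, against 404 of 12879 tested genes (3.14%). Their median change was -0.20 over all 404. Dim genes, under a level of 6, read -0.27 against the control mean on mir-429 replicate 1, and 0.01 and -0.03 on replicates 2 and 3, at the median. The part of that array in the zinc finger count was not tested.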
